A study of Mus musculus with 4 samples.

Results

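The enzymes that make heme, and the carrier that brings glycine into mitochondria for the pathway, were described here in 3 mouse leukemias and in normal bone marrow. The members were Alas1, Alas2, Alad, Uros, Urod, Cpox, Ppox, Fech and Slc25a38, 9 genes of the 18193 that had a probe set annotated to a single gene. They were measured by 20 of 34945 such probe sets, and each member passed the filter on low signals. RNA of 4 samples was hybridised to 1 array each. One was a mixed lineage leukemia from hematopoietic stem or precursor cells that had been given both AF4-MLL and its reciprocal fusion MLL-AF4, which join the histone methyltransferase MLL and the elongation factor AF4. A leukemia labelled proB ALL (acute lymphoblastic, of pro-B type) and another labelled B/T BAL (biphenotypic, with B and T features) came from cells given AF4-MLL alone. Values are listed below in this order of the leukemias unless stated otherwise. The fourth sample was bone marrow labelled as normal. Leukemic marrow came from moribund C57BL6 mice several months on and was typed by flow cytometry but not sorted, so each leukemia array also holds the RNA of the host's remaining marrow cells. The labels give no age, and do not say whether the normal marrow came from a mouse that had received a transplant.

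Heme is an iron-bearing ring that carries oxygen in hemoglobin and electrons in cytochromes, peroxidases and catalase. Its synthesis starts in mitochondria, where 5-aminolevulinate synthase joins glycine to succinyl-CoA, continues in the cytosol and ends in mitochondria with the insertion of iron. The starting step has 2 isoenzymes, the ubiquitous Alas1, which heme itself represses, and Alas2, which is made in red cell precursors under GATA1 and is tied to iron supply at translation. Red cell precursors of the marrow make most of the body's heme.

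The stretches before the start sites of 4 members are shown because Alas2 and Alas1 lie at the ends of the range of differences that follows, and because Cpox and 1 start of Uros carried a match to the core of the GATA motif. The sequences are the 250 bases before each start site, 5′ to 3′ on the strand of the gene, from RefSeq, build GRCm38.p6. Capitals mark AGATAA or its core GATAA, and CACCC, the motifs of GATA and KLF factors, here each on the opposite strand, so that their reverse complements are read, and the remaining letters are in lower case. The Alas2 stretch is chrX:150547167-150547416 on the plus strand, that of Alas1 chr9:106247955-106248204 on the minus strand, that of Cpox chr16:58669958-58670207 on the plus strand, and that of Uros chr7:133702501-133702750 on the minus strand, within the annotated span of the gene.
Alas2: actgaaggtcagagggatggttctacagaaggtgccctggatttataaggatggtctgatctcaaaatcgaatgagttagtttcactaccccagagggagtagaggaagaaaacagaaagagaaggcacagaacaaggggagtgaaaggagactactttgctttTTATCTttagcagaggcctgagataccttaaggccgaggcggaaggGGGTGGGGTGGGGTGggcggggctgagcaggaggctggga
Alas1: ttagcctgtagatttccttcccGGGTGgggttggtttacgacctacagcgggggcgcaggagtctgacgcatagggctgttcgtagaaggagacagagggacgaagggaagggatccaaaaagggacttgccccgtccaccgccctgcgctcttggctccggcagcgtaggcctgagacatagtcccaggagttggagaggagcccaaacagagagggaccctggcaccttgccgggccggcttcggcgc
Cpox: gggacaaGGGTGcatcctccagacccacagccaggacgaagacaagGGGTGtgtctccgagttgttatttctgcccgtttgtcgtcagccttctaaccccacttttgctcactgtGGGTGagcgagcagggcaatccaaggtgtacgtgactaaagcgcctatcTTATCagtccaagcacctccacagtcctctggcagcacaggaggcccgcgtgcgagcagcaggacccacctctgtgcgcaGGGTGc
Uros: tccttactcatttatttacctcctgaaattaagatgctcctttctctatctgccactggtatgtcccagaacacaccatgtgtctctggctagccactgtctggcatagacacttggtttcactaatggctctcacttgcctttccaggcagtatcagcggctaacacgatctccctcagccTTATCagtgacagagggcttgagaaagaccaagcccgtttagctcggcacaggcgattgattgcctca

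The table of promoters held 11 start sites for 8 of the 9 members. AGATAA, searched on both strands, lay in 1 of them, that of Alas2, 86 to 81 bases before the start, and in 9.99% of 32851 such stretches over all genes. Its shorter core GATAA was added after the sequences had been seen and includes every AGATAA. This core lay in 3 of the 11 stretches, those of Alas2, Cpox and 1 start of Uros, and in 22.6% of all stretches. CACCC lay in 6 of the 11 stretches, which belong to 5 members, and in 52.0% of all stretches. Alas2 had 3 CACCC matches in a row between 40 and 26 bases before its start. CACACCC, which contains CACCC, was found once, at Cpox, and in 6.93% of all stretches. GCATGCG, the core of the motif of the mitochondrial regulator NRF1, lay before a further start of Alas1 and in 3.02% of all stretches. A match is a run of letters and not a measured binding site.

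Values were MAS5 signals, a linear brightness per probe set scaled to the same trimmed mean on each array. Positions of genes are those of RefSeq in GRCm38.p6. Each gene was read from its probe set with the highest mean, and differences are log2(signal + 51.4) of a leukemia minus normal marrow. A signal of 189, the median of all probe sets, served as the floor, and a fold with a side at or under the floor is given as "at least". Each group held 1 array, so single-array differences have no replicate error and were read against a 2-fold threshold. The 3 leukemias were also compared as a group with the normal array by limma, which took its spread from the leukemias (2 residual degrees of freedom) and assumed the lone normal array to vary like them. The samples are leukemias of different kinds, so p-values measure the spread among these and not among replicates. A permutation of 3 arrays against 1 cannot go below p = 0.25.

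The arrays differed in dim signals and in RNA measures. Above the floor were 57.4% of probe sets on the mixed lineage array and 46.3% to 49.0% on the other 3, and the ratio of 3′ to 5′ control signals for Actb was 2.47 to 4.72 in the leukemias and 1.87 in normal marrow. The labels were set against marker lists. On the proB ALL array 8 of 8 measured B-cell markers were at least 2-fold lower than in normal marrow and 8 of 8 natural killer markers at least 2-fold higher, so B-lineage markers did not bear out its label. On the B/T BAL array 8 of 8 T-cell markers were at least 2-fold higher and 8 of 8 B-cell markers at least 2-fold lower. On the mixed lineage array 12 neutrophil markers had a median log2 difference of 0.65, and 6 of 8 B-cell markers were at least 2-fold lower. Of all genes that passed the filter, 15.2%, 18.7% and 17.7% were at least 2-fold lower on the 3 arrays. At least 2-fold higher were 18.8%, 11.3% and 15.4%. Ebf1, Vpreb1 and Igll1 exceeded the floor on the normal array alone, Gzmb in proB ALL alone, and Cd4 and Ptcra in B/T BAL alone. They passed the filter only through the array where they were high, so the filter favoured their calls.

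Heme synthesis genes were lower in the leukemias than in normal marrow, with the exception of Alas1 on the mixed lineage array. At least 2-fold lower were 8 of 9 members in mixed lineage leukemia, where 15.2% of all 14012 tested genes were called lower. In proB ALL 9 of 9 were lower against 18.7% of all genes, and in B/T BAL 9 of 9 against 17.7%. On each of the 3 arrays 0 members were at least 2-fold higher, against 18.8%, 11.3% and 15.4% of all genes. In all 3 leukemias at once 8 members were at least 2-fold lower, against 4.45% of all genes. The normal array was above all 3 leukemia arrays for 8 members, against 19.2% of all genes. Median log2 differences of the members were -2.62, -3.11 and -2.79 on the 3 arrays, beside 0.08, -0.11 and 0.05 over all tested genes. The 3 comparisons share the 1 normal array. In unsorted marrow, fewer cells that make heme and less RNA per such cell cannot be told apart.

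**Figure D1:**
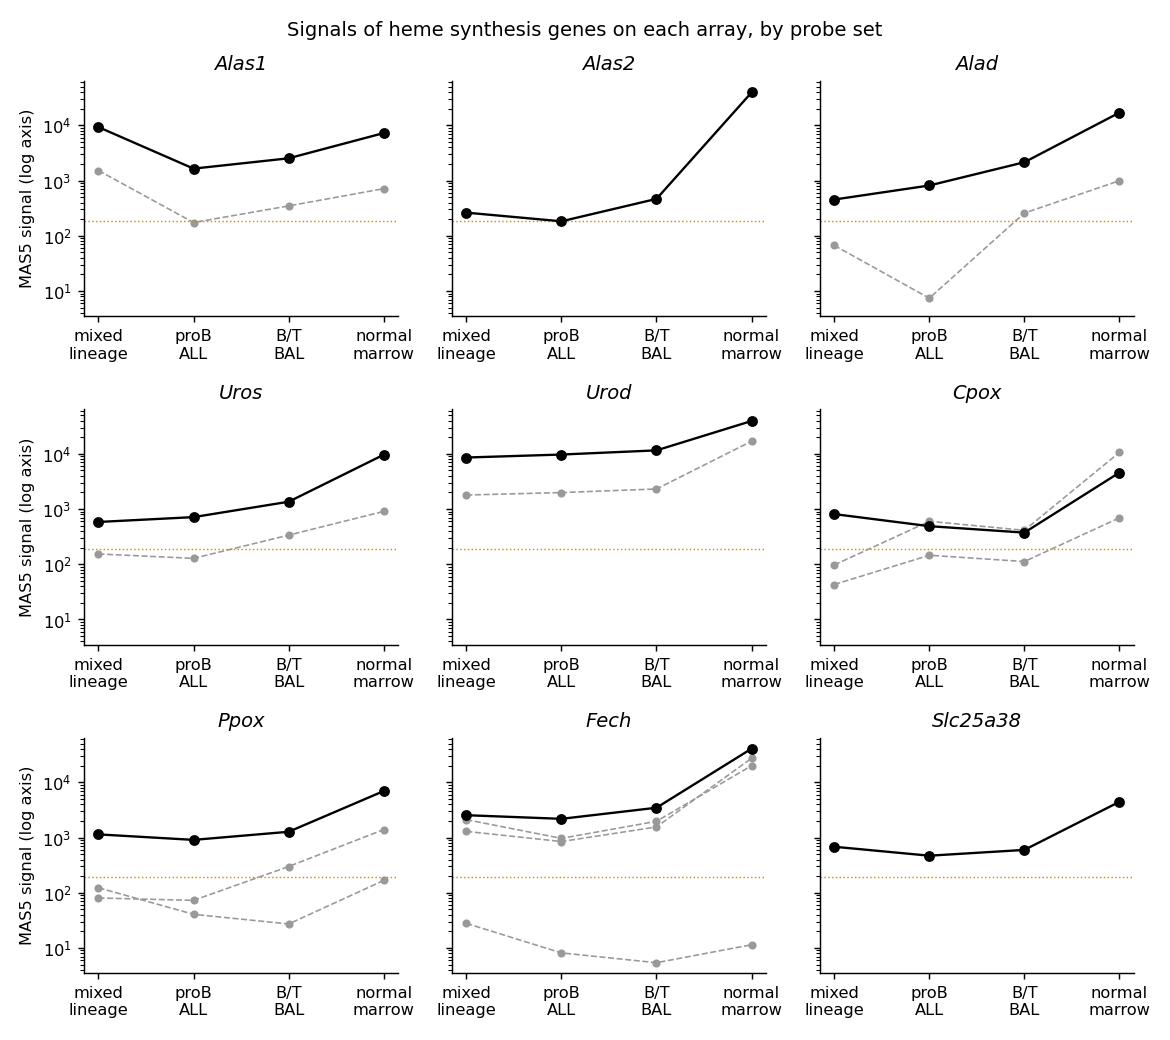
Signal of each probe set (vertical log axis, MAS5 signal) on the 4 arrays for the 9 genes; black lines join the values of the probe set that stands for the gene, grey dashed lines those of its other probe sets, and the dotted line is the floor of 189. The normal array is highest in the black line of each gene except Alas1, whose highest signal, 9316, is on the mixed lineage array.

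No member passed limma's adjusted threshold of 0.05 between the leukemias and normal marrow. Of all genes 0% passed in either direction. At an unadjusted p under 0.05, 8 of 9 members were lower, against 2.63% of all genes, and 0 members were higher, against 0.314%. Alas2 came nearest, with a mean log2 difference of -6.88 (SE 0.78, limma adjusted p = 0.0702, lower in 3 of 3 leukemias). Fech followed with -3.90 (SE 0.635, limma adjusted p = 0.127, lower in 3 of 3). Alas2 passed with a larger pseudocount and with robust moderation (limma adjusted p = 0.0371 and 0.0344), where 0.107% and 0.164% of all genes passed as lower. Under the other settings of pseudocount, filter, scaling, probe set and moderation no member passed. Fits with 1 leukemia left out had fewer arrays to estimate the spread, so only their effect sizes are given here. The mean log2 difference of Alas2 was -6.83 without the mixed lineage array, -6.62 without proB ALL and -7.19 without B/T BAL. That of Fech was -3.86, -3.76 and -4.08.

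Alas2, the red cell form of the enzyme of the starting step, was the member furthest below normal marrow. Its signals were 263, 183 and 467 on the leukemia arrays and 39547 in normal marrow (gene at chrX:150547417-150570622). The leukemias lay close to the floor, and proB ALL below it. Normal marrow was 150-fold, at least 210-fold and 84.7-fold above them. Of the 14012 tested genes, 5 had a lower mean difference over the leukemias than Alas2. It was measured by a single probe set.

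Alas1, the isoenzyme made in all cells, had another pattern. Its signals were 9316, 1649 and 2536 in the leukemias and 7266 in normal marrow (gene at chr9:106233455-106247954). Mixed lineage leukemia and normal marrow were high and the leukemias with AF4-MLL alone were low. The mixed lineage array was 1.28-fold above normal marrow, 5.65-fold above proB ALL and 3.67-fold above B/T BAL. The other probe set of Alas1, marked for possible cross-hybridisation, gave the same order, with 1522, 174, 348 and 715. By it the mixed lineage array was 2.13-fold above normal marrow. The mean log2 difference of the 3 leukemias was -1.08 (95% interval -3.37 to 1.20, limma adjusted p = 1). Neutrophil markers moved with it in part. The signals of 12 markers summed to 792449, 136170 and 430602 in the leukemias and to 495622 in normal marrow, with 0 of 12 at or below the floor on any array. On the mixed lineage array 0 of the 12 were at least 2-fold higher, in proB ALL 10 were at least 2-fold lower and in B/T BAL 6 were. S100a8, S100a9 and Ngp, abundant neutrophil proteins, were above normal marrow in B/T BAL (log2 differences of 0.48, 0.73 and 0.31). The other markers of the list were below it there, and the median of the 12 was -1.21. Signals of 11 monocyte and macrophage markers summed to 157436, 36446 and 36209 against 99150, of which 1 was at or below the floor in normal marrow and 1 in B/T BAL. Their part in the Alas1 signals was not tested.

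Slc25a38, the mitochondrial carrier that supplies glycine to the starting step, had 681, 469 and 597 in the leukemias and 4444 in normal marrow (gene at chr9:120110377-120126093). The leukemias lay within 1.45-fold of one another, and normal marrow was 6.52-fold to 9.47-fold above them.

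The cytosolic enzymes followed. Alad, which condenses aminolevulinate to the pyrrole porphobilinogen, had 454, 816 and 2153 in the leukemias and 17058 in normal marrow (gene at chr4:62505984-62520063). Its leukemias were further apart than those of any other member but Alas1, with B/T BAL 4.74-fold above mixed lineage leukemia. Normal marrow was 37.6-fold, 20.9-fold and 7.92-fold above the 3 leukemias. Its other probe set gave 67.0, 7.41 and 258 against 995, with mixed lineage leukemia and proB ALL below the floor. Uros, which closes the linear tetrapyrrole into a ring, had 584, 715 and 1358 against 9645 (gene at chr7:133686142-133710467), and normal marrow was 16.5-fold, 13.5-fold and 7.1-fold above. By its other probe set, with 154, 128 and 337 against 907, B/T BAL was again the highest leukemia. Urod, which trims the side chains of the ring, had 8592, 9725 and 11579 against 39414 (gene at chr4:116989965-116994436). By this probe set, marked for possible cross-hybridisation, Urod was the member least below normal marrow after Alas1. Normal marrow was 4.59-fold, 4.05-fold and 3.4-fold above. The other probe set of Urod gave wider folds of 9.45, 8.52 and 7.33. With probe sets of possible cross-hybridisation left out, the mean log2 difference of Urod was -3.04. That was lower than those of Cpox (-2.99), Slc25a38 (-2.84) and Ppox (-2.61), so its rank depends on the probe set.

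Alad, Uros and Urod shared an order of the leukemias, lowest in mixed lineage leukemia, then proB ALL, then B/T BAL. The spread of Urod over the leukemias was 1.35-fold, so its order rests on small differences. By their other probe sets Alad and Uros were lowest in proB ALL, with signals below the floor. Alas2, Ppox and Fech were instead lowest in proB ALL and highest in B/T BAL, with spreads of at least 2.48-fold, 1.4-fold and 1.59-fold. Under quantile normalization Alas2 was lowest on the mixed lineage array, and 1 further Fech probe set was highest there. Of 7 genes with at least 2 probe sets above the floor on some array, 4 had the same lowest leukemia by each of them and 5 the same highest. Such agreement does not settle an order, as each leukemia had 1 array. Some of the ranks also compared signals below the floor, as for 1 further probe set each of Ppox and Cpox. Between mixed lineage leukemia and B/T BAL the log2 difference of Ppox was -0.15, but 0.04 under quantile normalization. With arrays scaled to a common 75th percentile, Urod between mixed lineage leukemia and proB ALL went from -0.18 to 0.06.

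The enzymes that finish heme in mitochondria were lower as well. Cpox, which oxidises coproporphyrinogen, had 811, 490 and 375 against 4585 in normal marrow (gene at chr16:58670208-58680391), 5.65-fold, 9.35-fold and 12.2-fold apart. A further probe set of Cpox turned the order of the leukemias, with 97.3 in mixed lineage leukemia, below the floor, and 600 and 412 in proB ALL and B/T BAL against 10649. The order of the leukemias for Cpox is therefore not settled, while each of its 3 probe sets was highest in normal marrow. Ppox, which oxidises protoporphyrinogen, had 1141, 907 and 1272 against 6950 (gene at chr1:171276991-171281193), and normal marrow was 6.09-fold, 7.66-fold and 5.47-fold above. Fech, which inserts iron into the ring, had 2540, 2183 and 3467 against 40745 (gene at chr18:64456542-64489098), and normal marrow was 16-fold, 18.7-fold and 11.8-fold above. A pair of further Fech probe sets gave folds between 9.49 and 32.3. Over all members, 18 of 20 probe sets exceeded the floor on at least 1 array, and 16 of them were at least 2-fold lower in all 3 leukemias. The exceptions were the Alas1 pair. The 2 that stayed below the floor on all arrays belong to Ppox and Fech. Among the 16, 1 of Cpox exceeded the floor on the normal array alone. The matching share over all probe sets was not computed.

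**Figure D2:**
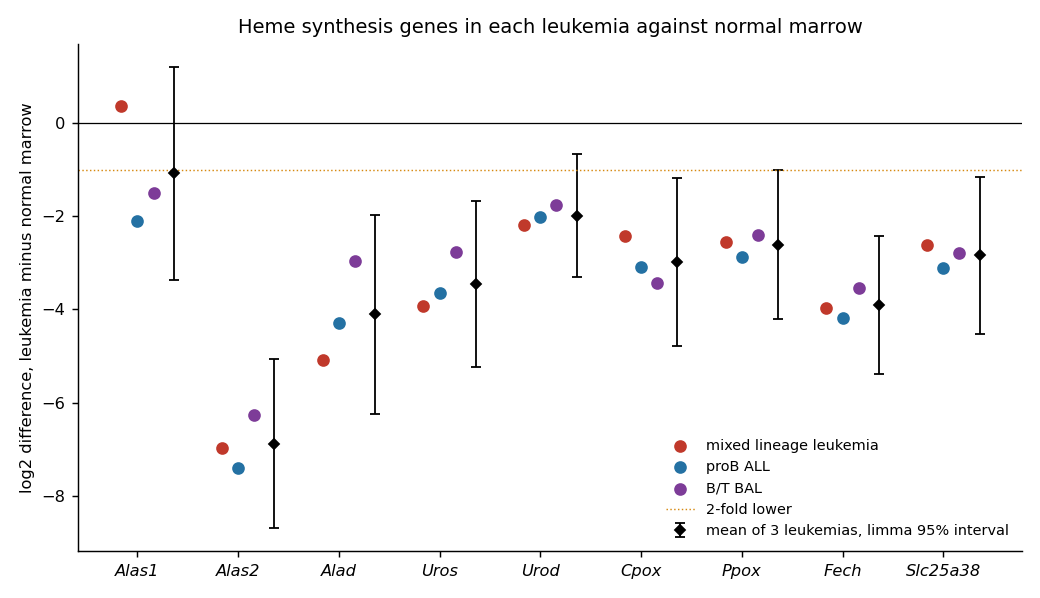
Log2 difference of each leukemia from normal marrow (vertical axis) for the 9 genes; coloured points are single arrays, black diamonds the mean of the 3 leukemias with limma's 95% interval, and the dotted line is 2-fold lower. Alas2 is lowest at -6.88 on average, and Alas1 on the mixed lineage array, at 0.36, is the single point above 0.

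Between pairs of leukemias few members were 2-fold apart. Alas1 was the 1 member at least 2-fold higher in mixed lineage leukemia than in proB ALL, against 27.3% of all genes, and 0 were lower, against 15.7%. Against B/T BAL, Alas1 and Cpox were higher in mixed lineage leukemia (26.3% of all genes) and Alad and Uros lower (21.2%). Between proB ALL and B/T BAL, Alas2 and Alad were lower in proB ALL (15.9% of all genes) and 0 members higher (10.5%). These shares are near or below those of all genes in most cases, and with 1 array a group they have no test. Cpox went the other way, with a log2 difference of -0.47 in place of 1.02 between mixed lineage leukemia and B/T BAL, when its probe sets were averaged. Alas2 between proB ALL and B/T BAL was 2-fold apart by its main value of -1.14 but not under quantile normalization (-0.92) or with the pseudocount at the median of all signals (-0.82). With that pseudocount Cpox between mixed lineage leukemia and B/T BAL was at 0.83, and with arrays scaled to a common 75th percentile Uros was at -0.98.

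Markers of red cell precursors were lower still. All 14 measured markers were at least 2-fold lower in each leukemia, and their median log2 differences were -5.90, -6.76 and -5.93. Of all tested genes 15.2%, 18.7% and 17.7% were at least 2-fold lower on the 3 arrays, and 4.45% on all 3 at once. Signals of the 14 markers summed to 4542, 4483 and 5391 in the leukemias and to 292198 in normal marrow. At or below the floor were 5, 11 and 5 of the 14 on the leukemia arrays and 0 on the normal array, and none had a signal of 0. Car1 and Epb42 exceeded the floor on the normal array alone, and so passed the filter only through it. By mean over the leukemias the markers ran from -7.21 (Car1) to -4.03 (Sptb), with a median of -6.19 against -2.99 for the members. Alas2 lay inside that range, as did Alad at -4.11, and the other 7 members lay above it. The median signal of a member was 15.3%, 10.6% and 13.4% of its normal signal in the 3 leukemias, and that of a red cell marker 1.49%, 1.11% and 2.21%, with signals under the floor counted at the floor. Platelet lineage markers were lower too, 5 of 5 measured by at least 2-fold in each leukemia, with medians of -2.30, -3.44 and -3.68. Their signals summed to 2396, 1807 and 2189 against 32309, with 0, 2 and 1 of the 5 at or below the floor on the leukemia arrays, 0 on the normal array, and none at 0. The part of red cell precursors and of platelet precursors in the members' differences was not tested.

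Regulators of red cell development were lower in the same arrays, with medians of -4.02, -4.50 and -4.15. At least 2-fold lower were 10 of 11 on each array, against 15.2%, 18.7% and 17.7% of all genes. On all 3 arrays 9 of 11 were, against 4.45% of all genes. Gata1, the GATA factor that drives Alas2, had 333, 63.8 and 326 against 9009. Klf1, a zinc finger factor of red cell genes, had 192, 104 and 165.5 against 21735. Tal1 (a partner of GATA1) and Gfi1b (a repressor of red cell and platelet precursors) had mean log2 differences of -5.68 and -4.98. Nfe2, a factor of red cell and platelet precursors, was near normal on the mixed lineage array, with 13334, 439 and 1150 against 17027. Ldb1, a cofactor of GATA1 and TAL1, was higher in B/T BAL, with 115, 1235 and 4048 against 1343. Eif2ak1, the kinase that slows translation when heme is short, had 1229, 1160 and 1998 against 7927.

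The 5 genes nearest to Alas2 in their 3 differences from normal marrow were Ermap, Klf1, Aqp1, Rhd and Vpreb1, at Euclidean distances of 0.25 to 0.93 on the log2 scale over 4 arrays. In proB ALL these genes were below the floor, with 80.8, 104, 125, 147 and 30.1 in this order, as was Alas2. Vpreb1 was below the floor in mixed lineage leukemia and B/T BAL too (97.3 and 54.1), while Aqp1 was above it there (319 and 431). The distances to Alas2 therefore compare in part background signals of genes that were bright in normal marrow. Ermap and Rhd encode membrane proteins of red cells and Aqp1 their water channel, while Vpreb1 encodes part of the surrogate light chain of B-cell precursors. The 5 nearest to Alas1 were Cebpb, Lrrc39, Fam160a2, Fgr and Slc11a1, at distances of 0.06 to 0.20. Cebpb, a transcription factor of myeloid cells, had 12491, 2243 and 3582 in the leukemias and 10002 in normal marrow. Fgr, a kinase of myeloid cells, had 5281, 1018, 1520 and 4145, and Slc11a1, a metal transporter of phagocytes, had 2716, 508, 822 and 2169. Lrrc39 was near or below the floor, with 275, 11.3, 45.5 and 214.

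**Figure D3:**
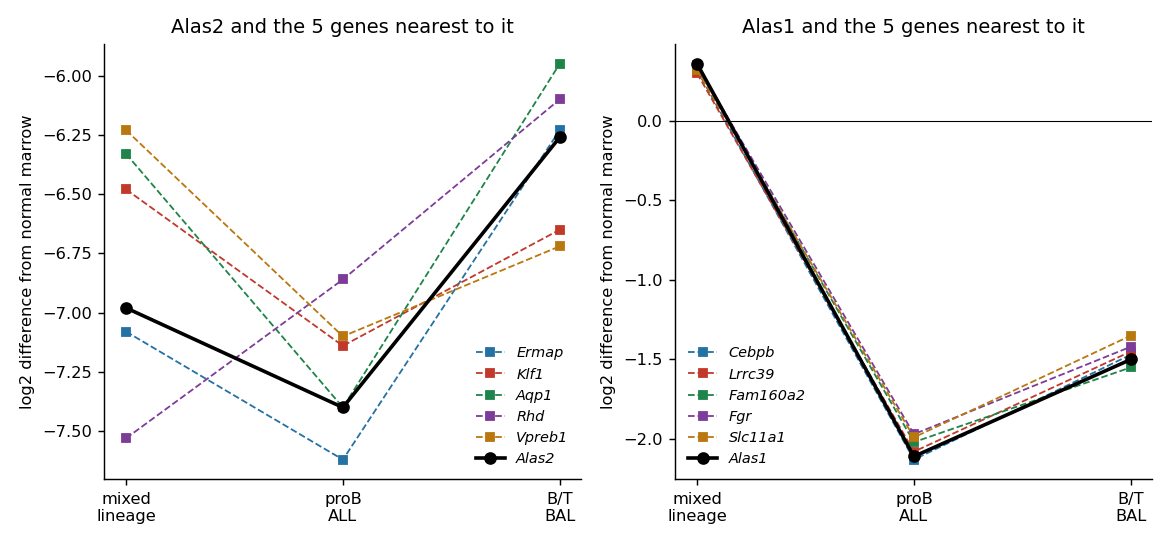
Log2 difference from normal marrow (vertical axes, of different range) on the 3 leukemia arrays for Alas2 (left) and Alas1 (right), each in black with the 5 nearest genes as dashed lines. The genes beside Alas2 lie between -7.62 and -5.95, and those beside Alas1 lie between 0.30 and 0.35 on the mixed lineage array and between -2.13 and -1.97 in proB ALL. In proB ALL the signals of Alas2 and of the 5 genes beside it were below the floor.

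Porphyrin transporters and mitochondrial partners of the pathway were in part lower. For this list and those that follow, the shares of all genes at least 2-fold lower were 15.2%, 18.7% and 17.7%. The shares at least 2-fold higher were 18.8%, 11.3% and 15.4%. Of 13 measured genes, 10, 9 and 9 were at least 2-fold lower and 0, 1 and 1 higher, with medians of -2.24, -1.61 and -1.28, and 0 passed limma's adjusted threshold. Slc25a37, the mitochondrial iron importer of red cell precursors, had 1054, 1156 and 2209 against 33405. Fam210b, a mitochondrial protein of red cell precursors, had 354, 404 and 433 against 7262, and Abcg2, a porphyrin exporter, 397, 421 and 568 against 7353. Slc6a9, a glycine transporter of the cell surface, had 425, 242 and 694 against 4851. Shmt2, which makes glycine in mitochondria, went the other way in proB ALL and B/T BAL, with 9964 and 12209 against 1832, and had 1562 in mixed lineage leukemia. Slc25a28, the iron importer of other tissues, had 1709, 2414 and 4486 against 2320.

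Genes of the other substrates differed less. For the enzymes around succinyl-CoA, the other substrate of the starting step, medians were -0.22, 0.40 and 0.27, and 1, 0 and 0 of 10 were at least 2-fold lower and 0, 2 and 0 higher. The higher pair in proB ALL were Suclg1 and Suclg2, subunits of succinyl-CoA synthetase, at 1.10 and 1.23. For iron uptake and storage, medians were -0.49, -0.91 and -0.35, with 4, 5 and 4 of 12 at least 2-fold lower and 0, 0 and 1 higher. Tfrc, the transferrin receptor, had 7513, 12104 and 14566 against 29956, and Tfr2, its homologue in liver and red cell precursors, 623, 366 and 268 against 3062. Slc40a1, the iron exporter of macrophages, had 10756 in mixed lineage leukemia and 2608 and 1250 in proB ALL and B/T BAL against 15860. For iron-sulfur cluster assembly, which shares mitochondrial iron, medians were -0.79, -0.61 and -0.76, with 4 of 10 at least 2-fold lower on each array and 1, 2 and 0 higher. The higher ones were Nfu1 on the mixed lineage array (1.18) and Hspa9 and Fdx1 in proB ALL (1.35 and 1.14). Isca1 was furthest below with 3249, 3583 and 3534 against 26702. In each of these 3 lists 0 genes passed limma's adjusted threshold.

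Heme breakdown and heme proteins were mixed. Of 9 genes of heme breakdown and export, 3, 4 and 4 were at least 2-fold lower and 3, 1 and 0 higher. Blvrb, a flavin and biliverdin reductase abundant in red cells, had 1040, 469 and 456 against 23132, and Hebp1, a heme-binding protein, 707, 55.8 and 74.6 against 12014. Hmox1, the inducible heme oxygenase, had 1301, 423 and 1127 against 5739, while Hmox2, the constitutive form, had 4868, 3283 and 4947 against 3409. Of 9 other heme proteins, 2, 4 and 4 were at least 2-fold lower and 2, 1 and 0 higher. Furthest from normal marrow was Epx, the eosinophil peroxidase, with 156, 46.4 and 25.9 against 25742. Epx was below the floor in each leukemia and at least 136-fold lower. It passed the filter only through the normal array, so the filter favoured this call. Cyp51, a P450 of sterol synthesis, had 793, 2671 and 731 against 581. Mpo, the neutrophil peroxidase, had 60520, 4035 and 12934 against 43969, Cybb, the heme subunit of the phagocyte oxidase, 63754, 6538 and 5063 against 22931, and Cat (catalase) 4428, 4375 and 5498 against 17198. Mpo and Cybb, like Alas1, were highest on the mixed lineage array and lower in the other leukemias than in normal marrow. Of 12 globin genes and their chaperone, 6 were not analysed here and 4 were tested, with medians of -0.49, -2.08 and -0.99. At or below the floor were 3, 5 and 3 of the 6 analysed on the leukemia arrays and 4 on the normal array. The medians therefore rest largely on background. Hbb-y had 191, 1.28 and 2.14 against 141, and Hbb-bh1 67.1, 7.93 and 216 against 241. Of the 4 tested, 1 was at least 2-fold lower in all 3 leukemias and 1 at least 2-fold higher. Hba-a2, an alpha globin with a near-identical copy, had 753, 280 and 626 against 3348, and its signal may include that copy. Hbb-b2, a beta globin that likewise has a near-identical copy, went the other way, with 412, 124 and 513 against 25.1, below the floor in proB ALL and in normal marrow.

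**Figure D4:**
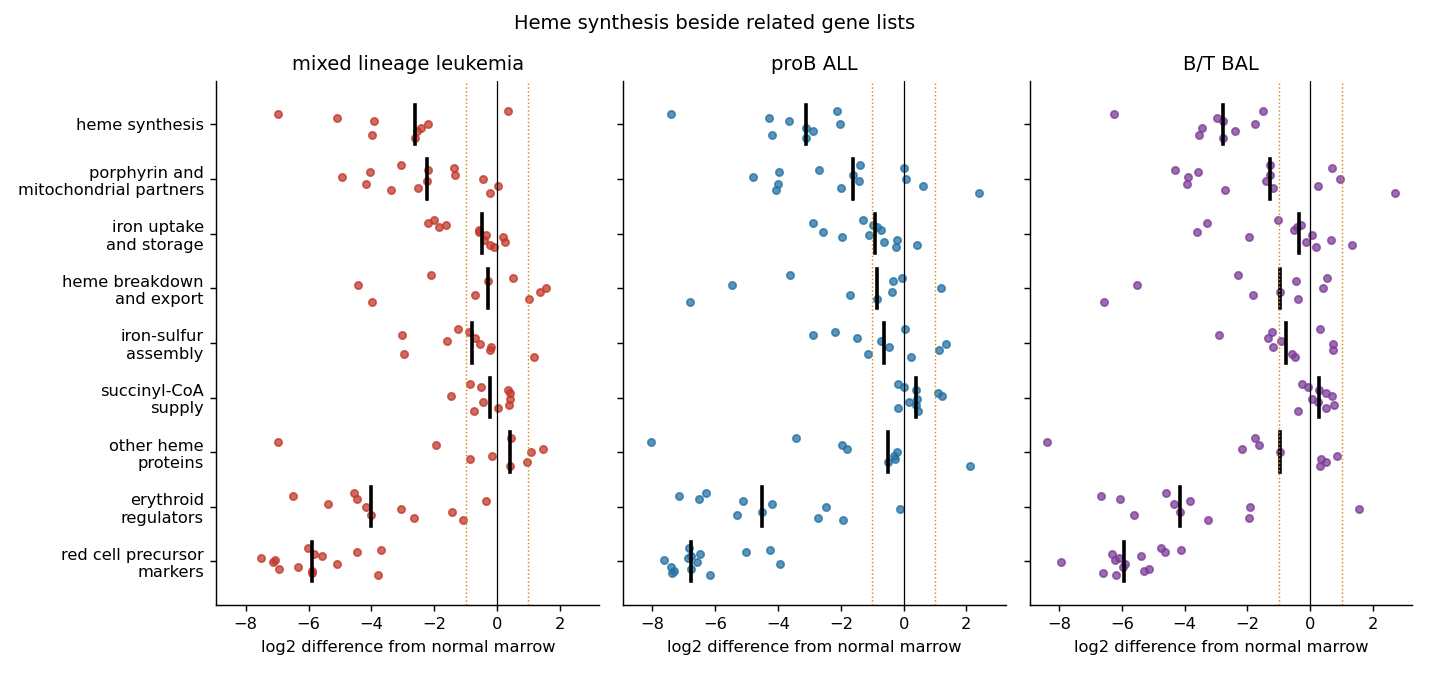
Log2 difference from normal marrow (horizontal axes) of each measured gene (points) in heme synthesis and 8 related lists, by leukemia; black bars are list medians and dotted lines mark 2-fold. Heme synthesis has medians of -2.62, -3.11 and -2.79, between the succinyl-CoA enzymes near 0 and the red cell precursor markers at -5.90, -6.76 and -5.93.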

How the data were processed

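Biotin-labelled cRNA of 4 samples was measured on Affymetrix mouse arrays of 45101 probe sets, 1 per sample. The deposited values are intensity values on a linear scale, 1 signal per probe set, and the submitters' processing notes name MAS5. Its version and settings were not given in the sources used here. Values had a trimmed mean of 1000 on each array after removal of 2% at each end. Control probe sets (64) and those with several genes (932) or no gene name (9160) were left out. Signals were analysed as log2(signal + 51.4), the 25th percentile, on which scale the change of dim genes is understated. Genes with their probe set above 189 on at least 1 array were tested (14012). Models were fitted with limma 3.58.1 (R 4.3.3), moderated with a trend on intensity, with Benjamini-Hochberg adjustment over all tested genes. They were also run on simulated data. There the normal array was given the same spread as the leukemias, so the simulation cannot check that assumption. The number of arrays limits the precision, and no batch is given by the labels.

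Members, related lists and tests were chosen with earlier results of these data known. Genes to be named were all members, in each list the 4 furthest from normal marrow by mean, of which the text gives a part, and the 5 genes nearest to Alas2 and to Alas1. Shmt2, Slc25a28, Eif2ak1, Nfe2, Ldb1, Hmox2, Cybb, Suclg2, Nfu1, Hspa9, Fdx1, S100a8, S100a9, Ngp, Sptb, Ebf1, Cd4 and Epb42 were named after their values had been seen. Alternatives were other pseudocounts (10th and 50th percentile), no filter or one at the 75th percentile, signals raised to the floor, quantile or 75th percentile scaling, other probe set rules, other moderation, and each leukemia left out. Promoter sequences came from RefSeq (GRCm38.p6).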

Additional observations from a re-analysis of the deposited data

Results flagged for a closer look

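Alas1 moved one way in mixed lineage leukemia and the other way in the remaining leukemias. Its log2 difference from normal marrow was 0.36 on the mixed lineage array, -2.11 in proB ALL and -1.50 on the B/T BAL array. Each group held 1 array, so the difference between the leukemias was not tested. By its other probe set the differences were 1.04, -1.77 and -0.94. No group held the 4 arrays that a check for an outlying sample needs.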

How the results depend on the processing

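Under 9 other settings of pseudocount, filter, scaling and probe set, the 243 recomputed differences of a member in 1 leukemia from normal marrow kept their direction and their side of the 2-fold threshold. The count of members that passed limma's adjusted threshold as lower was 0 in the main fit. It was 1 with the pseudocount at the median of all signals and 1 with robust eBayes, Alas2 in both cases. In these 2 fits 0.107% and 0.164% of all genes passed as lower. Leaving out 1 leukemia gave 0 to 4 members: 0 without mixed lineage leukemia, 2 without proB ALL and 4 without B/T BAL, while 0%, 0.478% and 0.778% of all genes passed as lower. These fits have fewer arrays to estimate the spread. Over all fits the limma adjusted p of Alas2 ran from 8.07e-10 to 0.276 and that of Fech from 0.000242 to 0.393. Of 243 recomputed differences between leukemias, 236 kept their side of the threshold, 4 dropped below it, 2 passed it and 1 reversed, Cpox between mixed lineage leukemia and B/T BAL at -0.47 with the mean over probe sets. Between leukemias 8 of the 243 changed sign, 7 of them below 2-fold in the main values. Of 405 recomputed list medians, 381 kept their side of the threshold, 22 passed it (globins in B/T BAL, for example, went from -0.99 to -2.33 with the floor at the 75th percentile) and 2 dropped below it. Signs changed in 6 list medians, each below 2-fold, among them heme breakdown on the mixed lineage array (-0.29, and 0.11 with no filter) and T-cell markers in proB ALL (0.40, and -0.08 with the floor at the 75th percentile). No paired analysis was possible because each group held 1 array and the labels give no replicate numbers. The signals of Alas2 in the leukemias and of the dimmer probe sets of Alad, Uros, Cpox and Ppox lay near or below the floor, so their folds are bounded by background.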
